A study of Mus musculus with 2 samples.

Results

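Cultured peptidergic sensory neurons were taken as the cells of 3-day dorsal root ganglion (DRG) cultures that carried neuronal transcripts together with a high level of Calca. Of 10730 cells that passed the filters, 811 were neurons, and 283 of these neurons had at least 20 Calca UMIs per 10000 UMIs of the cell and are called Calca-high here. A UMI (unique molecular identifier) counts a captured transcript once. The other 528 neurons, below that level, are called Calca-low. A cell counted as a neuron when Tubb3, Snap25, Uchl1, Prph and Stmn2 together reached 20 UMIs per 10000 and the fibroblast genes Dcn, Lum and Mgp together stayed below 20.

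The cells came from DRGs of the cervical, thoracic and lumbar levels of 2-week-old male and female Swiss mice. The ganglia were digested with enzymes, and the cells were cleared of debris on a density gradient, plated on laminin and detached with trypsin after 3 days. Droplet libraries that read the 3' ends of transcripts (10x Genomics, version 3) were made on 1 chip, and 2 of them, called A and B, are described here, both from untreated cultures. Nothing in the sources ties A and B to different mice or to different culture wells, so p-values measure only the spread between these libraries, which may be technical.

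Calca encodes the precursor of calcitonin gene-related peptide (CGRP), and Tac1 encodes that of substance P. Peptidergic nociceptors are the sensory neurons that store such peptides in dense-core vesicles, release them from both nerve endings and respond to noxious heat and chemicals, and many of them depend on nerve growth factor. After axotomy, to which dissociation of a ganglion amounts, sensory neurons switch on a regeneration programme led by factors such as Atf3, Jun and Sox11.

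Calca (ENSMUSG00000030669) lies on the minus strand at chr7:114631478-114636357 of GRCm38, and its paralogue Calcb (ENSMUSG00000030666) lies nearby on the plus strand at chr7:114718643-114723365. Tac1 (ENSMUSG00000061762) lies at chr6:7554879-7565834 and Atf3 (ENSMUSG00000026628) at chr1:191170296-191218039. The deposited counts are summed over each gene and so do not separate the calcitonin from the CGRP form of Calca, and reads of the similar Calca and Calcb transcripts could be split between the genes. The stretches before the RefSeq starts of these genes are printed because Calca defined the neurons, Tac1 encodes the second classical peptide, and Atf3 showed the opposite pattern. They are given on the coding strand in GRCm38.p6, with the half-site of the cyclic AMP response element (TGACG, or CGTCA on the other strand) in capitals.
Calca, chr7:114636358-114636607, minus strand: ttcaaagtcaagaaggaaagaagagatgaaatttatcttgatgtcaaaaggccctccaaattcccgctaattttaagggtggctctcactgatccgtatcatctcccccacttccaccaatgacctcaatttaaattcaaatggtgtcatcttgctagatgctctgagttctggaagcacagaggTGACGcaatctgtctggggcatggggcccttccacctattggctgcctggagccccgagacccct
Tac1, chr6:7554811-7554878, plus strand: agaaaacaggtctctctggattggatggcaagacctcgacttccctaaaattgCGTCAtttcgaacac
Atf3, chr1:191183334-191183583, minus strand: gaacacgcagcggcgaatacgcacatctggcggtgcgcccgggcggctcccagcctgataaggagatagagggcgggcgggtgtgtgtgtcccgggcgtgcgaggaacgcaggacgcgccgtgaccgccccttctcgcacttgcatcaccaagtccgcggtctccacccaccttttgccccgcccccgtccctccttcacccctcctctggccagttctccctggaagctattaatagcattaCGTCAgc
The half-site began 65 bases before the start of Calca and 7 bases before that of Atf3. In Tac1 it was found 197 and 43 bases before the start, and the nearer one lies in a stretch that GENCODE places inside the first exon and that is not printed. The half-site of Atf3 lies within the last 7 printed bases, which GENCODE counts as part of an exon. GENCODE also has an Atf3 transcript that starts further upstream. Among 32851 RefSeq promoters of the same 250 bases, 17.8% held the half-site on either strand and 1.55% held the full TGACGTCA, which none of these 3 genes had. These matches describe the letters and not the binding of a factor.

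The Calca-high neurons made up 37.2% of 435 neurons in library A (exact 95% binomial interval 32.7 to 42.0) and 32.2% of 376 in library B (27.5 to 37.2), with a mean of 34.7% ± 3.58 (SD, n = 2). The intervals overlap, but each share lies just outside the interval of the other library, and the intervals cover counting error only. Calca ran as a broad band rather than as a separate peak above the cut. The median level was 67.7 UMIs per 10000 in the Calca-high neurons of A and 57.9 in those of B, and 300 of the 811 neurons had under 1. Just inside the cut, 23 neurons lay between 20 and 25 with a median of 21.9, and just outside it, 30 lay between 15 and 20 with a median of 17.4. Of 9919 cells outside the neuron gate, 4 reached the same Calca level.

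**Figure D1:**
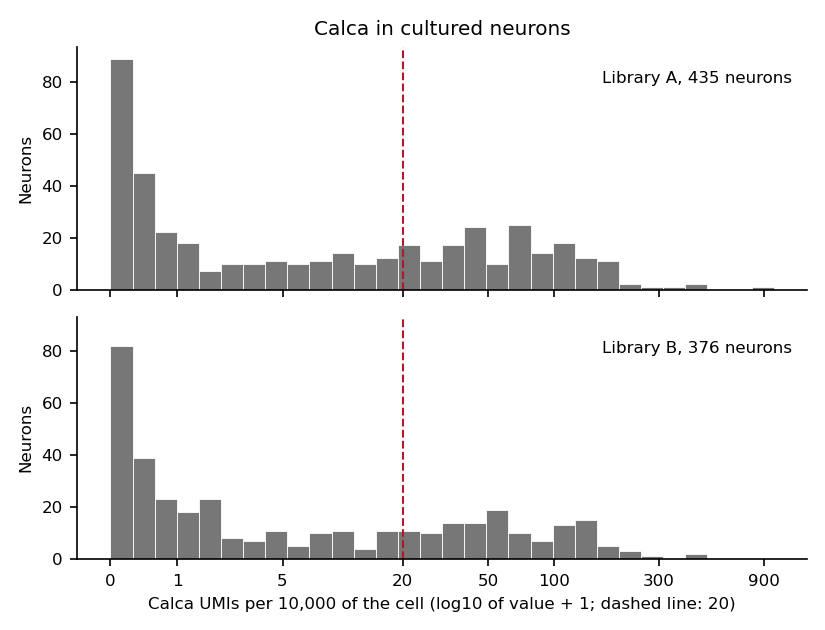
Number of neurons by their Calca level, in UMIs per 10000 of the cell on a log10 scale of the value plus 1, in library A (435 neurons) and library B (376 neurons), with the dashed line at 20. Both libraries hold a peak near 0 and a broad spread of Calca across the line, with 162 neurons above it in A and 121 in B.

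The 2 groups of neurons were sequenced to a similar depth. The median cell had 31475.5 and 28344 UMIs among the Calca-high neurons of A and B, against 27499 and 26846 among the Calca-low neurons and 5018 and 4664 among the other cells. Of the Calca-high neurons, 31 had under 10000 UMIs, as did 103 of the Calca-low neurons. The median mitochondrial share was 6.17% in Calca-high and 5.27% in Calca-low neurons. The libraries shared 8 cell barcodes, of which none was a neuron in both. Levels below are counts per 1000000 (CPM) of the UMIs summed over the cells of a group in a library, in the order A and B. Since the kit reads 3' ends, levels were not divided by gene length. Log2 fold changes and adjusted p-values are from edgeR's quasi-likelihood test on these sums, adjusted by Benjamini and Hochberg over all genes tested, with a threshold of 0.05.

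The genes of the peptidergic class moved with Calca. All 13 of its 15 listed genes that entered the test were higher in Calca-high than in Calca-low neurons, with a median log2 fold change of 2.04, whereas 26.4% of all 12299 genes tested were higher, 52.0% passed in either direction and the median over all genes was -0.01. Of the 13, 12 were higher by at least 2-fold, as were 8.46% of all genes. The list had been drawn up with earlier results of these data known, so its direction is not independent evidence. Neurons were chosen by Calca, so Calca itself and the other genes of the gate were not tested.

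Tac1 stood at 371 and 228 CPM in Calca-high neurons against 112 and 104 CPM in Calca-low neurons, a log2 fold change of 1.49 ± 0.07 (SE, adjusted p = 7.98e-27). Both Calca-high values lay above both Calca-low values, but A and B differed from each other by more than in the Calca-low neurons. Calcb, which encodes the second CGRP, stood at 874 and 868 against 479.8 and 321 CPM (log2 1.14). Adcyap1, the precursor of the peptide PACAP, reached 452 and 419 against 151 and 114 CPM (log2 1.73), but with the Nefh-positive and Nefh-negative neurons of each group given equal weight its difference shrank to log2 0.22 (adjusted p = 0.467). For each of these peptide genes both Calca-high values lay above both Calca-low values, while 26.4% of all genes tested were higher. How many of all genes separated in this way was not counted.

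Among the receptors and channels of this class, Trpv1, the channel opened by heat and capsaicin, stood at 115 and 109 CPM in Calca-high and 16.7 and 13.3 CPM in Calca-low neurons (log2 2.90, adjusted p = 2.62e-32). Ptgir, the prostacyclin receptor, stood at 124 and 146 against 11.8 and 12.2 CPM (log2 3.49). For both, the libraries of a group lay close together and far from the other group. Gfra3, the co-receptor of artemin, differed least of the tested genes of this list, with 366 and 264 against 228 and 205 CPM (log2 0.56). The antioxidant enzyme gene Gpx3 differed most, with 106 and 86.1 against 7.50 and 5.44 CPM (log2 3.89).

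**Figure D2:**
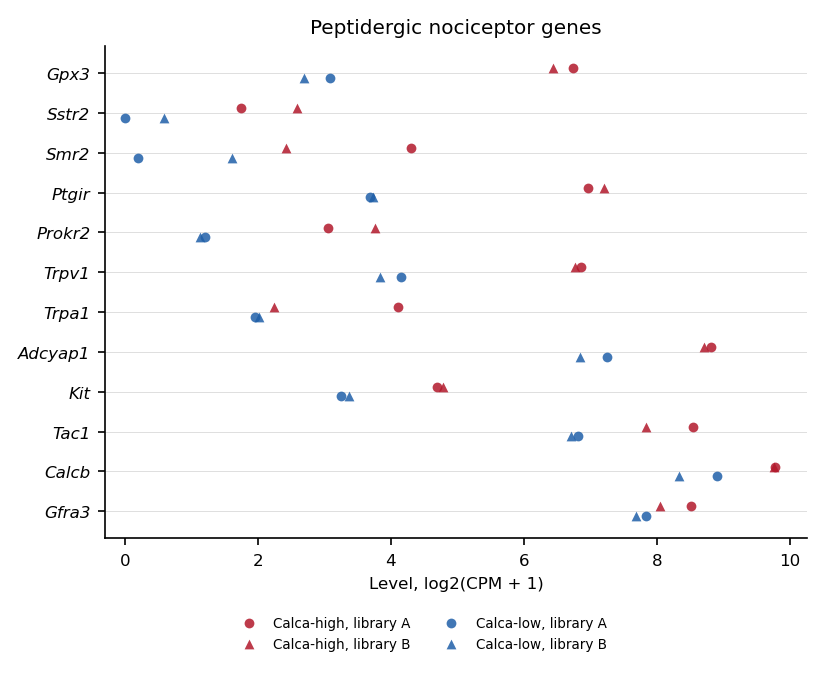
Level of 12 of the 13 tested peptidergic nociceptor genes, as log2(CPM + 1), in Calca-high (red) and Calca-low (blue) neurons of library A (circles) and library B (triangles), ordered by log2 fold change. For every gene both red points lie to the right of both blue points, and Trpa1 and Smr2 show a wide gap between the libraries of the Calca-high group. How many of all genes separate in this way was not counted. Trpa1 differed by log2 0.23 in library B alone and did not pass with DESeq2 (adjusted p = 0.116).

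The share of cells with a UMI gave the same order once each cell was thinned to 2000 UMIs, which left out 15 Calca-high and 32 Calca-low neurons and 182 other cells. Tac1 was then detected in 29.6% ± 2.19 (SD, n = 2) of Calca-high neurons, 11.5% ± 1.28 of Calca-low neurons and 0.363% of the other cells. Without thinning, the shares were 63.7%, 31.3% and 0.926%. Trpv1 was detected in 17.3% of thinned Calca-high and 2.77% of Calca-low neurons. High Calca often went with little Tac1, since 17.3% of Calca-high neurons had Tac1 at 5 or more UMIs per 10000.

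Within the Calca-high neurons, several of these genes ran with the level of Calca itself. Calcb stood at 563 CPM ± 19.2 (SD, n = 2) in the 113 neurons with Calca between 20 and 50, at 749 ± 26.3 in the 84 between 50 and 100 and at 1364 ± 35.8 in the 86 at 100 or more. Trpv1 ran from 85.1 ± 1.75 to 145 ± 15.1 CPM and Gfra3 from 264 ± 48.2 to 409.6 ± 76.3 CPM between the lowest and the highest band. Tac1 ran from 127 ± 12.6 to 535 ± 164 CPM, with a wide spread between the libraries. Nefh, the heavy neurofilament of myelinated neurons, ran the other way, from 414 ± 4.74 to 200.04 ± 23.8 CPM, as did the sodium channel gene Scn10a, from 214 ± 10.3 to 129.6 ± 39.5 CPM. These bands share cells' depth and libraries, and no test was made across them.

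**Figure D3:**
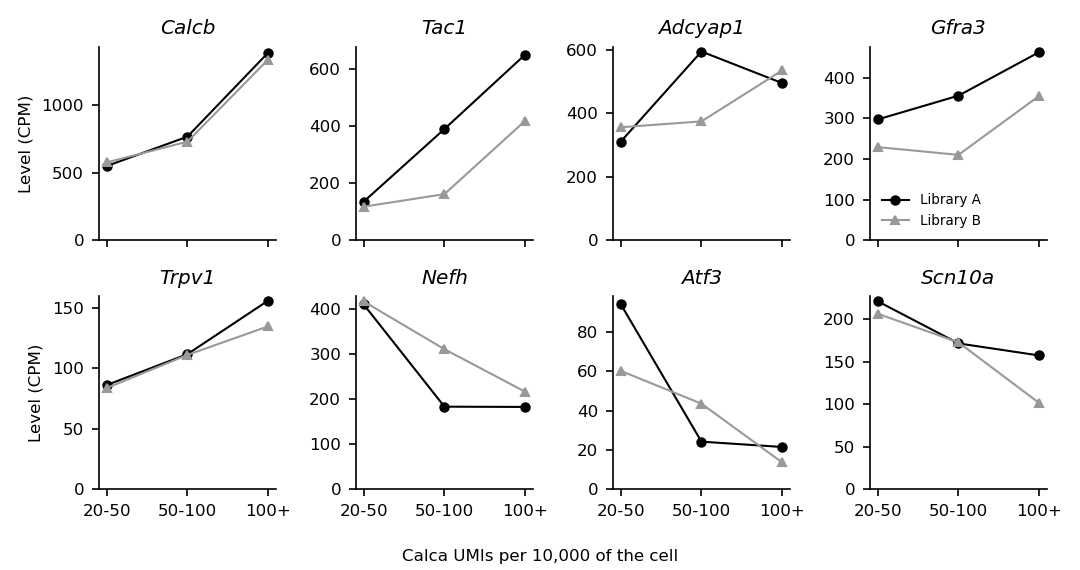
Level in CPM (from 0) of 8 genes in Calca-high neurons grouped by their own Calca level (20 to 50, 50 to 100, and 100 or more UMIs per 10000), for library A (black circles) and library B (grey triangles). Calcb, Tac1, Gfra3 and Trpv1 were higher in the top band than in the bottom band in both libraries, and Nefh, Atf3 and Scn10a were lower.

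Other neuropeptide genes divided between the groups. Of 20 listed, 16 were tested, and 8 were higher and 7 lower in Calca-high neurons, against 26.4% and 25.7% of all genes. Cartpt stood at 552 and 573 against 211 and 129.7 CPM (log2 1.74), and Nmb, the precursor of neuromedin B, at 217 and 199 against 32.3 and 28.7 CPM (log2 2.78). Cck, which encodes cholecystokinin, stood at 48.8 and 16.0 against 1.01 and 0.510 CPM (log2 5.40), so its level differed between the libraries by more than that of the other peptides. Pdyn, the dynorphin precursor, stood at 17.8 and 22.5 against 1.44 and 1.02 CPM (log2 3.98).

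Some abundant peptides stood apart from this pattern. Gal, the galanin gene that sensory neurons switch on after axotomy, was abundant in both groups at 3269.9 and 3335 CPM in Calca-high and 3419 and 2976 CPM in Calca-low neurons, and it did not pass the test (log2 0.06 ± 0.04, adjusted p = 0.181). The 4 Gal values overlapped. Its result depended on the cells taken, from log2 -0.15 (adjusted p = 0.00753) with Calca cut at 10 UMIs per 10000 over 0.49 with Calca cut at 50 and 0.76 with a mitochondrial limit of 5% to 1.18 (adjusted p = 2.17e-09) among neurons with Atf3 under 2 UMIs per 10000. Nts, the neurotensin gene, stood at 305 and 519 CPM in Calca-high against 4409.9 and 4185 CPM in Calca-low neurons and fell by 3.42 on the log2 scale (adjusted p = 3.44e-45). Penk, the enkephalin precursor, stood at 5.56 and 5.01 against 134 and 129 CPM and fell by 4.61.

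Of 17 genes for prohormone processing and dense-core vesicles, all tested, 12 were higher in Calca-high neurons and 2 lower, with a median log2 fold change of 0.54, against 26.4% and 25.7% of all genes. Most of these differences were small, since 2 of the 17 were higher by at least 2-fold, against 8.46% of all genes, and 1 was lower. Scg2, a granin of the vesicle core, stood at 633 and 659 against 152 and 141 CPM (log2 2.15). Pcsk1, a prohormone convertase, stood at 32.7 and 29.4 against 13.3 and 14.96 CPM (log2 1.17), and Syt4, a vesicle synaptotagmin, at 1536 and 1523 against 879 and 767 CPM (log2 0.91). With Nefh-positive and Nefh-negative neurons given equal weight, Pcsk1 no longer passed (log2 0.19, adjusted p = 0.729). The lower genes were Cpe, the carboxypeptidase that trims peptide precursors, which stood at 281 and 261 against 624 and 642 CPM and fell by 1.21, and Syt7, a calcium sensor of vesicle release, at 65.2 and 75.1 against 100.3 and 99.3 CPM (log2 -0.51).

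Of 26 voltage-gated channel genes, all tested, 14 were higher and 3 lower, with a median of 0.45, against 26.4% and 25.7% of all genes. Scn10a and Scn11a, the tetrodotoxin-resistant sodium channels of nociceptors, stood at 187 and 163 against 53.0 and 48.6 CPM (log2 1.80) and at 123 and 126 against 40.1 and 33.0 CPM (log2 1.77). Scn9a differed less, with 247 and 273 against 179 and 169 CPM (log2 0.58). Kcna1, an axonal potassium channel, stood at 17.1 and 11.3 against 41.1 and 47.3 CPM and fell by 1.57. Of 15 sensory ion channel genes, 13 were tested, and 6 were higher and 4 lower. Asic3, an acid-sensing channel, stood at 11.1 and 8.45 against 0.866 and 0.680 CPM (log2 3.64), and P2rx3, the ATP-gated channel that is strongest in non-peptidergic neurons, fell by 1.25 from 84.7 and 84.7 to 34.0 and 36.9 CPM, a call that was lost with equal weights of the Nefh classes (log2 -0.16, adjusted p = 0.891).

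Of 23 G protein coupled receptor genes of pain, 15 were tested. Of these, 12 were higher and 3 lower, with a median of 2.58, against 26.4% and 25.7% of all genes. The thrombin receptor F2r stood at 44.1 and 35.4 against 1.154 and 2.04 CPM (log2 4.67). With Calca-high set at 50 or more, its value was -0.10 and did not pass (adjusted p = 0.771). Among Calca-high neurons, F2r stood at 337 and 246 CPM in the Nefh-positive ones. It stood at 28.8 and 19.3 CPM in those positive for neither Nefh nor Tac1. Adora1, an adenosine receptor, stood at 85.5 and 88.6 against 14.3 and 12.4 CPM (log2 2.70), and the cannabinoid receptor Cnr1 at 46.6 and 62.6 against 6.35 and 9.18 CPM (log2 2.83). The opioid receptor Oprm1 was scarce, at 6.63 and 6.58 against 1.30 and 0.850 CPM (log2 2.58). Htr1d, a serotonin receptor, fell by 3.30, from 42.1 and 50.5 to 5.35 and 3.44 CPM.

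Of 13 growth factor receptor genes, 6 were higher and 5 lower, against 26.4% and 25.7% of all genes. Ngfr, the p75 neurotrophin receptor, stood at 368 and 364 against 36.4 and 37.2 CPM (log2 3.33, adjusted p = 3.71e-45). Glia also express Ngfr, and 13.1% of the thinned other cells held a UMI of it, against 43.0% of Calca-high and 7.50% of Calca-low neurons. Ret, the signalling receptor for the glial cell line-derived factors, was lower at 309.9 and 329 against 433 and 429 CPM (log2 -0.42), and its partner Gfra2 was lower at 3.42 and 1.88 against 16.6 and 19.6 CPM (log2 -2.65).

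Genes of other sensory classes were mixed, while 26.4% of all genes were higher and 25.7% lower. Of 15 non-peptidergic genes, 10 were tested, and 3 were higher and 6 lower. Mrgpra3, an itch receptor, was among the higher ones at 21.2 and 19.7 against 4.33 and 3.74 CPM (log2 2.34). With Calca-high set at 50 or more, its value was -0.20 and did not pass (adjusted p = 0.581). Of 8 itch neuron genes, 7 were tested, and 1 was higher and 5 lower. Of 16 large-diameter neuron genes, 14 were tested, and 7 were higher and 5 lower, with Nefh at 272 and 320.3 against 141 and 145 CPM (log2 1.05). Of 6 low-threshold C fibre genes, 5 were tested, with 2 higher and 2 lower, among them Fam19a4, which fell by 2.80 from 39.2 and 41.6 to 5.77 and 5.64 CPM.

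Transcription factors of the sensory lineage also divided, with 11 of 21 tested higher and 8 lower, against 26.4% and 25.7% of all genes. Etv5, a factor induced by neurotrophin signals, stood at 169 and 152 against 24.7 and 27.5 CPM (log2 2.64). Prdm12, which nociceptors need in development, stood at 91.1 and 94.2 against 42.4 and 41.0 CPM (log2 1.16), and Isl1, a factor of all sensory neurons, at 109 and 120.2 against 61.9 and 67.2 CPM (log2 0.84). Bcl11a stood at 18.2 and 19.4 against 3.61 and 2.89 CPM (log2 2.52). Zfp521 fell by 3.47, from 10.4 and 9.86 to 1.07 and 0.626 CPM. Of 20 axon and synapse genes, 11 were higher and 4 lower, with Rbfox3, the NeuN gene of mature neurons, at 103 and 104 against 33.9 and 34.0 CPM (log2 1.61), and Map2 at 90.03 and 104 against 193 and 193 CPM (log2 -0.99).

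The axon injury and regeneration genes showed the reverse pattern. Of 25 listed, 22 were tested, 19 were lower in Calca-high neurons and 1 was higher, with a median log2 fold change of -1.30, whereas 25.7% of all genes tested were lower. By at least 2-fold, 13 were lower, against 9.42% of all genes. Atf3 stood at 50.7 and 40.1 CPM in Calca-high against 589.7 and 606 CPM in Calca-low neurons and fell by 3.68 ± 0.07 (SE, adjusted p = 4.84e-47). Sprr1a, a small proline-rich protein of regenerating axons, stood at 94.1 and 56.4 against 982 and 1093 CPM and fell by 3.72. Sox11 stood at 143 and 127 against 799 and 767 CPM (log2 -2.52). For these 3 genes the lowest Calca-low value was several times the highest Calca-high value.

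Jun stood at 144 and 144 against 417 and 424 CPM (log2 -1.53), and the stress gene Gadd45a at 54.3 and 48.5 against 309 and 304 CPM (log2 -2.56). Ecel1, a peptidase of injured neurons, stood at 16.9 and 17.8 against 138 and 169 CPM (log2 -3.11), and Flrt3, an adhesion protein, at 54.5 and 42.3 against 329.9 and 313 CPM (log2 -2.70). The growth-cone genes differed little. Gap43 stood at 1848 and 1854 against 2152 and 1979 CPM (log2 -0.15, a call lost under 5 alternatives), and Basp1 at 1204 and 1202 against 1423 and 1495 CPM (log2 -0.26). Stat3 was the single gene of the list that was higher, at 240.4 and 238 against 219 and 215 CPM (log2 0.15), and it lost its call under 7 alternatives and its sign under another. Nts, Npy and Crh count in this list as well as among the peptides.

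**Figure D4:**
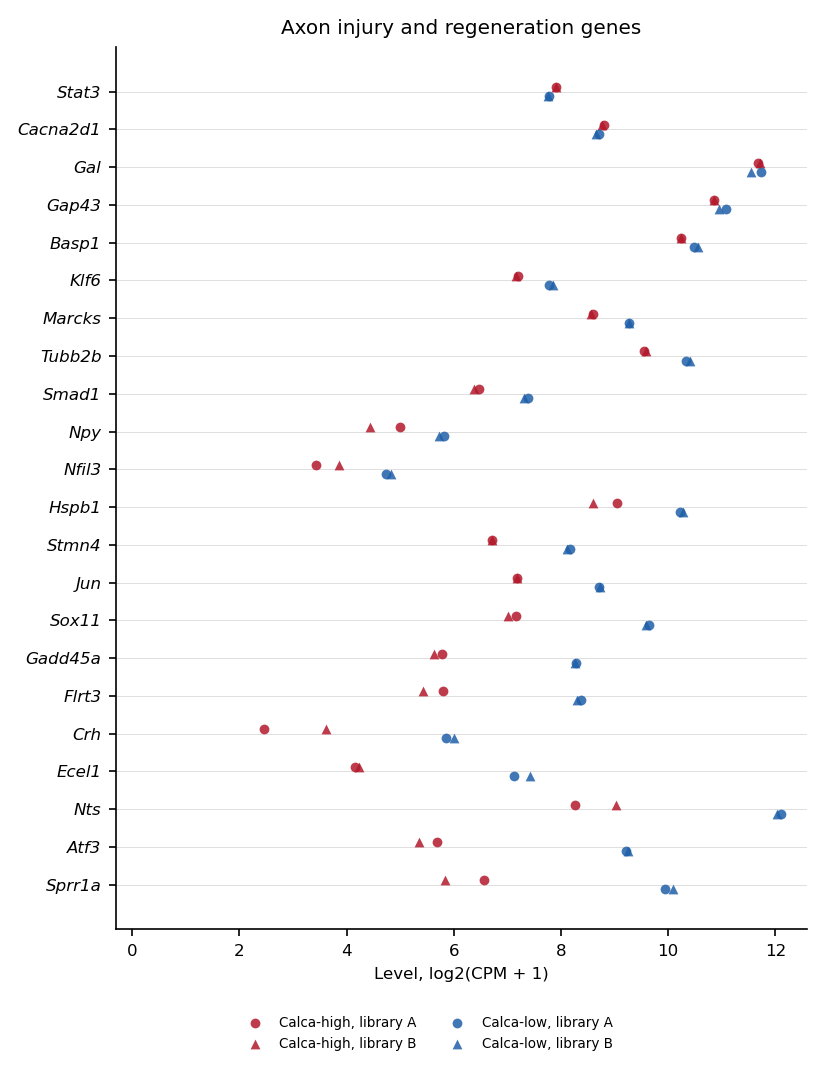
Level of the 22 tested axon injury and regeneration genes, as log2(CPM + 1), in Calca-high (red) and Calca-low (blue) neurons of library A (circles) and library B (triangles), ordered by log2 fold change. From Klf6 downwards the red points lie to the left of the blue points, with the widest gaps for Nts, Atf3 and Sprr1a, while Gal and Gap43 lie near each other in both groups.

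Cell by cell, 260 of 283 Calca-high neurons had Atf3 below 2 UMIs per 10000 (90.1% in A and 94.2% in B), against 155 of 528 Calca-low neurons (28.9% and 29.8%). After thinning to 2000 UMIs, an Atf3 UMI was found in 8.49% ± 0.846 of Calca-high and 56.2% ± 1.89 of Calca-low neurons (SD, n = 2), and in 8.94% of the other cells. The Calca-high share was 9.09% in A and 7.89% in B against 8.80% and 9.07% of the other cells, above it in A and below it in B. Of the other cells, 3.58% held Atf3 at 5 or more UMIs per 10000, so they do not give a background level for this gene. Whether the Calca-high share is expression or free RNA was not tested. Without thinning the shares were 30.5%, 80.3% and 16.99%.

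The comparison was repeated on the 260 and 155 neurons with Atf3 below 2, an alternative chosen after seeing the data. Of these, the 79 and 76 Calca-low neurons of A and B held 1659294 and 1470747 UMIs. The 146 and 114 Calca-high neurons held 4240081 and 3029796. Depth was not matched, and Atf3 can be missed in a shallow cell. Of the peptidergic genes, 8 of 12 tested were then higher and 0 lower, with a median of 1.33. Of the injury genes, 14 of 22 were lower and 3 higher, with a median of -0.50. Atf3 had set these cells and was not taken out of the calls, so this count is not independent of the choice. Gap43 turned to 0.24 (adjusted p = 0.0057) and Gal was higher by log2 1.18 (adjusted p = 2.17e-09). Tac1 (log2 0.42, adjusted p = 0.0863), Gfra3 (log2 0.15, adjusted p = 0.372) and Scn11a (log2 0.19, adjusted p = 0.202) no longer passed. Prdm12 (log2 0.03), Scn9a (0.04) and Map2 (-0.02) also lost their calls. Over all 10740 genes tested, 1126 were higher and 1036 lower in place of 3243 and 3155.

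A fixed rule named 10 strongly changed genes on either side. Besides F2r, the higher ones were 6030408B16Rik (log2 5.78), Cgnl1 (4.52), Pcp4l1 (4.52), Ptprd (4.51), Nptx1 (4.50), Tmem100 (4.36), Arhgap15 (4.28), S1pr3 (4.21) and Bcl11b (4.15). Like F2r, 6030408B16Rik and Cgnl1 were highest in the Nefh-positive Calca-high neurons, at 324 and 224 CPM and at 151 and 105 CPM. In Calca-high neurons positive for neither Nefh nor Tac1 they stood at 73.9 and 53.2 CPM and at 16.3 and 15.9 CPM. S1pr3, a receptor of the lipid sphingosine-1-phosphate, stood at 195 and 199 against 12.4 and 8.67 CPM, and Tmem100, a membrane protein that binds Trpa1 and Trpv1, at 127 and 145 against 7.36 and 5.78 CPM. Besides Penk, Atf3 and Sprr1a, the lower ones were Anxa1 (log2 -4.43), Mmp12 (-4.18), Flnc (-4.01), Tgfbi (-3.97), Inhbb (-3.87), Qrfpr (-3.86) and Inhba (-3.64). Inhba, an activin subunit, stood at 7.06 and 8.14 against 83.7 and 111 CPM, and Inhbb, the other activin subunit gene, at 2.35 and 0.313 against 21.9 and 24.0 CPM.

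With equal weights of the Nefh classes, Anxa1, Penk, Qrfpr and Syt7 turned, to log2 0.34, 0.29, 0.65 and 0.78. None of them passed with the turned sign (adjusted p = 0.965, 0.967, 0.957 and 0.242). These weights rest on 8 and 14 Nefh-positive Calca-low neurons in A and B, so a lost call may be a lack of counts. Tac1 (log2 3.81), Gfra3 (0.32), Bcl11a (0.95), Isl1 (0.60), Gfra2 (-1.80), Fam19a4 (-1.35), Zfp521 (-1.69), Ecel1 (-1.68), Mmp12 (-2.002), Flnc (-1.95), Tgfbi (-2.47) and Inhbb (-1.88) kept their direction but did not pass.

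Genes listed as markers of other cells moved with the same contrast, while 26.4% of all genes were higher and 25.7% lower. Of 10 peripheral glia markers, 9 were lower in Calca-high neurons, and their summed level was 1067 and 1002 CPM against 1777 and 1928 CPM, compared with 10033 and 9718 CPM in the other cells. The 1 marker that was higher, S100b, stood at 191 and 191 against 24.5 and 26.5 CPM (log2 2.92), and large sensory neurons express it too. Of 10 cell division genes, 9 were lower, with sums of 99.2 and 85.8 against 263 and 252 CPM. Of 10 immediate early and heat shock genes, 8 were lower, with a median of -1.04. Of the 7 fibroblast markers tested, 5 were lower, as were 3 of 4 macrophage markers and 1 of 2 pericyte markers. The macrophage markers summed to 38.3 against 40.8 CPM in A and 34.8 against 263 CPM in B, so that their difference came almost wholly from the Calca-low neurons of B, where Lyz2 stood at 157 CPM against 1.30 CPM in A. Outside those neurons the sums were mostly Aif1. It stood at 30.6 and 27.6 CPM in Calca-high and 33.0 and 32.6 CPM in Calca-low neurons. In the other cells Aif1 stood at only 2.86 and 2.70 CPM. In the other direction, the 1 endothelial gene tested, Egfl7, was higher at 90.2 and 111 against 36.2 and 32.8 CPM. The other cells held less of it, at 15.6 and 16.1 CPM. Whether any of its level in the neurons is endothelial material was not tested.

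The part of these markers in the gene differences was not tested. Among neurons at or below the median of the glia markers (202 Calca-high and 204 Calca-low), all 11 peptidergic genes tested were higher and 19 of 22 injury genes were lower, with medians of 2.23 and -1.16. Among neurons with at least 10000 UMIs, the counts were 13 of 13 and 19 of 22. A mitochondrial limit of 5%, which kept 59 Calca-high and 227 Calca-low neurons, gave 10 of 10 and 18 of 22. Over all 11113 genes tested at low glia markers, 2166 were higher and 2028 lower. The counts were 3150 and 3084 of 12233 genes with at least 10000 UMIs, and 1287 and 1041 of 10241 at the 5% limit.

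The Calca-high neurons were not uniform. By a level of Nefh of at least 10 UMIs per 10000, 41 of them (22 in A and 19 in B) were Nefh-positive, as some peptidergic neurons with thinly myelinated fibres are known to be, and 242 were not. By a level of Tac1 of at least 5, 49 (30 in A and 19 in B) were Tac1-positive. Only 1 cell, with 731 UMIs, was both, and 194 were neither. Of the Nefh-positive neurons, 19 had under 10000 UMIs, with a median of 1105.

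In the Nefh split, 883 of 10034 genes tested were higher (8.80%) and 873 lower (8.70%) in the Nefh-positive neurons. Changes of at least 2-fold were found in 4.94% and 4.73% of genes. The peptidergic genes divided, with 5 higher and 6 lower of 11 tested, of which 4 and 5 changed by at least 2-fold. Tac1 had 1 UMI in each library of the Nefh-positive neurons against 1734 and 727 UMIs in the others, a level of 1.01% of theirs (exact 95% interval 0.122 to 3.64, counting error only). Gfra3 stood at 16.1 and 10.8 against 391 and 288 CPM (log2 -4.68), Trpv1 at 9.63 and 10.8 against 123 and 118 CPM (log2 -3.58), and Adcyap1 at 135 and 130.0 against 475 and 446 CPM (log2 -1.83). Gal was lower as well, at 417 and 1098 against 3474 and 3548 CPM (log2 -2.34), with a large difference between the libraries of the Nefh-positive group.

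The genes that were higher in the Nefh-positive neurons included others of the peptidergic list. Prokr2, a prokineticin receptor, stood at 57.8 and 83.1 against 3.67 and 5.83 CPM (log2 3.86), Ptgir at 453 and 433 against 100.3 and 119 CPM (log2 2.00) and Kit at 54.6 and 54.2 against 22.7 and 24.0 CPM (log2 1.19). Kit lost its call under 5 alternatives, among them DESeq2 (adjusted p = 0.366). Of 11 large-diameter genes tested, 7 were higher and 1 lower, with a median of 1.42, against 8.80% and 8.70% of all genes. Nefl, the light neurofilament, stood at 4171 and 3612 against 1283 and 1246 CPM (log2 1.59), Ntrk3 at 48.2 and 43.3 against 5.499 and 6.17 CPM (log2 2.94) and the glutamate transporter gene Slc17a7 at 25.7 and 25.3 against 0.687 and 0.686 CPM (log2 5.06). Scn8a, the sodium channel of nodes of Ranvier, stood at 119 and 112 against 17.9 and 12.7 CPM (log2 2.86), and 13 of 26 voltage-gated channel genes were higher and 3 lower. Thy1 stood at 816 and 701 against 57.1 and 64.8 CPM (log2 3.62).

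Besides Slc17a7, the same fixed rule named as higher Apln (log2 4.92), Cabp7 (4.71), Prlr (4.25), Fzd4 (4.21) and Arhgef3 (4.17). Among the lower genes, the rule, which ranks by the fitted fold, named Mal2, Synpr, Ptprt, Zmat4, Myt1 and Wipf3, which had 0 UMIs in the Nefh-positive neurons, so that their order cannot be read as an order of size. A count of 0 allows up to 5.10 CPM there (3 counts over the group). Against that floor, Mal2 (104 and 97.0 CPM in the others) was at least 19.9-fold lower, Synpr at least 14.0-fold and Wipf3 at least 6.62-fold. With DESeq2, Mal2, Synpr and Myt1 did not pass (adjusted p = 0.520, 0.588 and 0.738). Wipf3 did not pass with Calca cut at 50 (adjusted p = 0.219) or Nefh cut at 20 (adjusted p = 0.108). Of 21 injury genes tested, 14 were lower and 0 higher in Nefh-positive neurons, against 8.70% and 8.80% of all genes. Among the lower ones was Atf3, at 16.1 and 14.4 against 53.2 and 42.5 CPM (log2 -1.68). However, Atf3 no longer passed under 6 alternatives, among them DESeq2 (adjusted p = 0.301) and thinning (log2 -0.96, adjusted p = 0.575).

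The glia markers summed to 2212 and 2106 CPM in the Nefh-positive against 985 and 897 CPM in the Nefh-negative Calca-high neurons, or 1214 and 1195 against 852 and 774 CPM without S100b. Their part in the split was not tested. With neurons of at least 10000 UMIs, which kept 22 Nefh-positive cells, 859 genes were higher and 875 lower. With neurons at or below the median of the glia markers, 10 Nefh-positive cells remained, and 21 genes were higher and 8 lower. Trpv1 (log2 -2.01), Adcyap1 (-0.95), Gal (-1.39), Nefl (0.89), Ptgir (1.503), Prokr2 (4.27), Scn8a (2.08) and Mal2 then did not pass.

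In the Tac1 split, 636 of 10013 genes tested were higher (6.35%) and 582 lower (5.81%) in the Tac1-positive neurons, and fewer changed by at least 2-fold (71 and 221, or 0.709% and 2.21%). Of 10 peptidergic genes tested, 6 were higher and 2 lower. Gfra3 stood at 754 and 527 against 261 and 205 CPM (log2 1.501), Trpv1 at 158 and 174 against 104 and 93.9 CPM (log2 0.77) and Gpx3 at 188 and 145 against 84.2 and 72.9 CPM (log2 1.13). Trpa1, the channel of pungent irritants, stood at 65.3 and 11.9 against 2.99 and 1.92 CPM (log2 4.06), and A and B lay far apart. Gal stood at 5033 and 4812 against 2793 and 3004 CPM (log2 0.81), and Calcb at 999 and 1202 against 839.6 and 793 CPM (log2 0.46). Calcb lost its call with cells thinned to 5000 UMIs (adjusted p = 0.193) and at a mitochondrial limit of 5% (adjusted p = 0.0896).

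Ptgir was lower in the Tac1-positive neurons, at 54.2 and 78.5 against 143 and 161 CPM (log2 -1.19), as were Nefh at 110.5 and 109 against 316 and 368 CPM (log2 -1.57) and Cartpt at 375 and 215 against 600.0 and 654 CPM (log2 -1.01). Ptgir lost its call with cells thinned to 5000 UMIs (adjusted p = 0.067) and at a mitochondrial limit of 5% (adjusted p = 0.0754). None of 7 non-peptidergic genes tested was higher and 5 were lower, against 6.35% and 5.81% of all genes. Mrgpra3 had 0 UMIs in the Tac1-positive neurons, which allows up to 1.90 CPM, against 26.9 and 24.2 CPM in the others, and was thus at least 13.6-fold lower. It reached 1 UMI per 10000 in 19 Calca-high neurons (12 in A and 7 in B), of which 0 were Tac1-positive and 0 Nefh-positive, and in 6 Calca-low neurons. Over the pooled cells a count of 0 in 19 allows a share of up to 15.8%, which covers counting error only. Of all 283 Calca-high neurons, 49 were Tac1-positive and 41 Nefh-positive. With so few Mrgpra3 cells, the counts of 0 do not show that these groups are separate. This level was set after the values were seen.

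The fixed rule, which asks for 20 CPM in both libraries of the higher group, named as higher in the Tac1-positive neurons Pcp4 (log2 1.86), Bik (1.78), Igfbp5 (1.77), Stk26 (1.69), Caly (1.63) and Mef2c (1.63). Besides Mrgpra3, it named as lower Thy1 (log2 -5.72), F2r (-4.26), Npy (-3.67), Cpne6 (-3.65) and Sema5a (-3.57). Thy1 stood at 4.02 and 0 against 136 and 147 CPM. Of 21 injury genes tested, 5 were higher and 3 lower, with a median of 0.08, against 6.35% and 5.81% of all genes. Atf3 did not pass at 54.2 and 17.1 against 49.7 and 45.2 CPM (adjusted p = 0.533). Of 10 glia markers tested, 5 were lower, with sums of 580.4 and 555 against 1199 and 1102 CPM, and their part in the split was not tested. With the Nefh-positive cells left out, an alternative chosen after seeing the data, 520 genes were higher and 443 lower. With Calca cut at 50, Gal (log2 0.03) and Igfbp5 (0.47) no longer passed, nor did Pcp4 (0.80) and Gpx3 (0.72) at a mitochondrial limit of 5% or Cartpt (-0.34), Stk26 (0.53) and Trpv1 (0.61) with Tac1 cut at 10. Caly (log2 1.14) and Mef2c (1.76) did not pass with cells thinned to 5000 UMIs, nor did Npy (-2.07) with a neuron gate of 50.

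**Figure D5:**
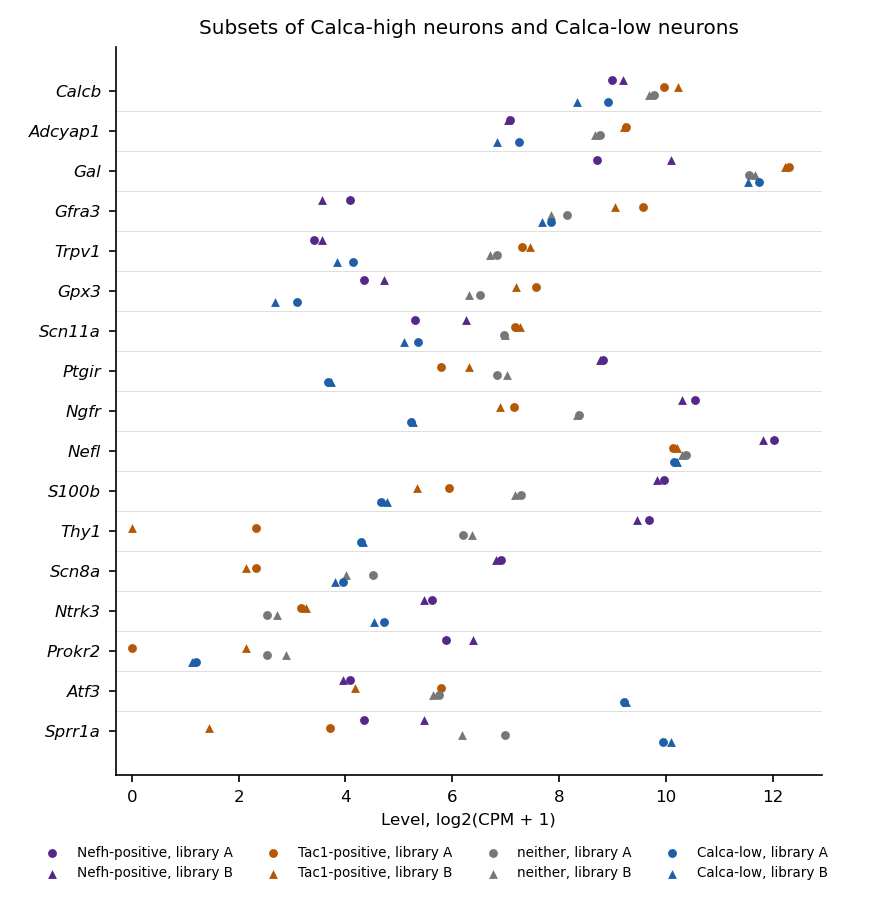
Level of 17 genes, as log2(CPM + 1), in Calca-high neurons that were Nefh-positive (41 cells, purple), Tac1-positive and not Nefh-positive (48 cells, orange) or neither (194 cells, grey) and in Calca-low neurons (528 cells, blue), for library A (circles) and library B (triangles). Gfra3 and Trpv1 are lowest in the Nefh-positive neurons, Thy1 and S100b are highest there, and Atf3 and Sprr1a are highest in the Calca-low neurons.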

How the data were processed

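For both libraries, the deposited values are whole UMI counts of each gene in each barcode, which the authors left unscaled. Their methods and processing notes name Cell Ranger 3.0.2 and the mm10-3.0.0 reference, while the matrix headers carry software version 3.1.0. Barcodes needed 200 detected genes and a mitochondrial share of 10% or less (10730 of 10948 passed), and doublets were not called. UMIs were summed per library and group (3193668 to 6930259 UMIs a sum for Calca-high and Calca-low neurons).

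Sums were tested with edgeR 4.0.16 in R 4.3.3 (quasi-likelihood test on 4 sums after filterByExpr and TMM scaling, with a block for the library and 1 residual degree of freedom). The 9 gate genes and the splitting gene stayed in library sizes but out of the calls. The script was tested on simulated data. Between A and B, the sums of a group differed by more than counting noise (chi-square per degree of freedom 1.34 for Calca-high, 1.997 for Calca-low and 1.32 to 1.57 for the groups of the splits).

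Members and gene lists were chosen with earlier results of these data known. Named genes were list members and, by rule, up to 10 genes (6 in a split) per direction with the largest change among those past the threshold, provided A and B agreed in direction and both stood at 20 CPM or more in the higher group. The level cuts for Atf3 and Mrgpra3 and the 2-fold counts were chosen after seeing the data. Alternatives included DESeq2 1.42.0, RLE size factors, no filter on low counts, thinning to 5000 UMIs and other cuts. Some members of the lists stay in the counts, but their own values are not reported here.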

Additional observations from a re-analysis of the deposited data

How the results depend on the processing

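The count of genes called moved with the processing more than their direction did. Values are genes higher and lower. For Calca-high against Calca-low neurons, the 3243 and 3155 became 1395 and 1099 with DESeq2, 1063 and 971 with cells thinned to 5000 UMIs, 1287 and 1041 with a mitochondrial limit of 5%, 2166 and 2028 among neurons at or below the median of the glia markers, 745 and 340 with Nefh-positive and Nefh-negative neurons given equal weight (68.7% of calls higher, against 50.7%), and 1126 and 1036 among neurons with Atf3 under 2. Of the genes called and tested again, 84.7% kept their direction with equal weights and 90.2% with Atf3 under 2. The equal weights rest on 8 and 14 Nefh-positive Calca-low neurons in A and B. Log2 values that turned were Anxa1 0.34, Penk 0.29, Qrfpr 0.65, Syt7 0.78 and Lyz2 1.79 with equal weights, F2r -0.10 and Mrgpra3 -0.20 with Calca cut at 50, Gal -0.15 with Calca cut at 10, and Gap43 0.24 and Stat3 -0.01 (-0.0051) with Atf3 under 2. Of these, only Gal and Gap43 passed with the turned sign. In single libraries, Lyz2 ran from -5.15 to 0.54. The cause was not tested. Gal, which had not passed, passed and was higher in 6 of the alternatives (log2 0.13 to 1.18).

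For the Nefh split, the 883 and 873 became 250 and 156 with DESeq2 (61.6% higher, against 50.3%), 157 and 161 thinned, 139 and 69 at the 5% limit (66.8%), 21 and 8 at low glia markers (72.4%), 588 and 492 with a neuron gate of 50, 282 and 205 with Calca cut at 50, 153 and 147 with Nefh cut at 20, and 610 and 969 without a filter on low counts (38.6%). For the Tac1 split, the 636 and 582 became 118 and 47 with DESeq2 (71.5% higher, against 52.2%), 140 and 127 thinned, 55 and 99 at the 5% limit (35.7%), 407 and 374 at low glia markers, 358 and 302 with a gate of 50, 139 and 133 with Calca cut at 50, 979 and 935 with Tac1 cut at 2, and 102 and 102 with Tac1 cut at 10. Among the named genes with a value under 14 alternatives, 1182 of 1270 values for the Calca comparison, 476 of 559 for the Nefh split and 397 of 438 for the Tac1 split kept direction and side of the threshold. The Calca-high share of 34.7% became 41.8% and 20.9% with Calca cut at 10 and 50 and 20.5% at the 5% mitochondrial limit, and ran from 32.2 to 37.2% in single libraries.

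In these comparisons both groups came from the same libraries, so the library was a block. With no replicate block, the counts were 3187 and 3098, 900 and 861, and 602 and 525. With 1 library left out no spread remained to test against, so leaving out a library gives values without calls. With 1 residual degree of freedom, the spread rests mostly on what edgeR shares across genes. The Nefh-positive sums held 311448 and 276876 UMIs, which limits genes at a few CPM. Doublets and free RNA were not modelled. The alternatives on Atf3 under 2, on Tac1-negative neurons alone and on Nefh-negative neurons alone were added after seeing the data.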
